A study of Mus musculus with 24 samples.

Results

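Tissue macrophages were followed through 10 of their marker transcripts among the 24532 genes of the expression table, and each of the 10 symbols was found there. *Clec4f* and *Timd4* were taken as markers of resident Kupffer cells, *Trem2* and *Gpnmb* as markers of recruited and lipid-associated macrophages, and *Adgre1*, *Cd68*, *Lyz2*, *C1qa*, *C1qb* and *C1qc* as general macrophage markers. Ctrl mice carried the floxed alleles *Crif1*flox/flox without Cre, and LKO mice carried Alb-Cre with *Crif1*flox/flox, so that both groups were floxed and the presence of Cre cannot be told apart from the loss of *Crif1*. The albumin promoter drives this Cre in hepatocytes, so the deletion was not aimed at the macrophages measured here. All mice were on a chow diet, were 8 weeks old, and gave liver, inguinal white adipose tissue (iWAT), gastrocnemius muscle (GM) and hypothalamus, with 3 libraries per genotype and tissue (24 in all). Nothing in the labels ties the tissues of an animal together.

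Kupffer cells are the macrophages that line the liver sinusoids. In the healthy mouse liver they carry CLEC4F, a C-type lectin that is nearly exclusive to them, and TIMD4, a receptor for phosphatidylserine on dying cells. When resident cells are lost or the tissue is injured, monocytes enter and can become macrophages, and in fatty or damaged tissue macrophages can take on a lipid-associated state with TREM2, a lipid-sensing receptor, and GPNMB, a glycoprotein of lysosomes and the cell surface. *Lyz2* encodes a secreted lysozyme, *Cd68* a lysosomal membrane protein of phagocytes, *Adgre1* an adhesion receptor used to identify mouse macrophages, and *C1qa*, *C1qb* and *C1qc* the 3 chains of C1q, which starts the classical complement pathway. In bulk tissue, more cells of a type and more RNA per cell cannot be told apart.

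The genes lie on 5 mouse chromosomes of the mm10 build. *Clec4f* spans chr6:83644542-83656116 and *Gpnmb* chr6:49036518-49058182, *Timd4* spans chr11:46810799-46844333 and *Cd68* chr11:69664213-69666170, and *Adgre1* spans chr17:57358686-57483529 and *Trem2* chr17:48346401-48352276. *Lyz2* spans chr10:117277541-117282272, and *C1qb*, *C1qc* and *C1qa* lie side by side within 18.7 kb at chr4:136880145-136898844. None of the 10 overlaps another annotated gene. RefSeq promoter sequences of the GRCm38.p6 build were at hand for 8 of the 10 (all but *Adgre1* and *C1qa*). The 250 bases before the annotated start are shown for the resident pair, for the recruited and lipid-associated pair, and for the neighbours *C1qb* and *C1qc*, whose levels stayed close to each other in every library. The strand shown is that of the gene, 5′ to 3′, and capitals mark every match on either strand to motifs of factor families known in macrophages or in stress responses: AGGAAGT for PU.1, CACGTG for the E-box, CATGTG for the M-box of the MITF family, TGATGNAAT for the stress-response element CARE, and TGANTCA for AP-1. None of the marked matches overlapped another. The positions are chr6:83656117-83656366, minus strand, for *Clec4f*; chr11:46810549-46810798, plus strand, for *Timd4*; chr17:48346151-48346400, plus strand, for *Trem2*; chr6:49036268-49036517, plus strand, for *Gpnmb*. For *C1qb* and *C1qc* they are chr4:136886201-136886450, minus strand, and chr4:136892915-136893164, minus strand.
Clec4f: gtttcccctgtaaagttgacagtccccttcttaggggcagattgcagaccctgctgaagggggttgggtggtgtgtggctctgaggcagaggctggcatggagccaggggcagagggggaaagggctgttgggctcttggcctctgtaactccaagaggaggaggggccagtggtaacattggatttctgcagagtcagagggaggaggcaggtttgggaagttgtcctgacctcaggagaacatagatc
Timd4: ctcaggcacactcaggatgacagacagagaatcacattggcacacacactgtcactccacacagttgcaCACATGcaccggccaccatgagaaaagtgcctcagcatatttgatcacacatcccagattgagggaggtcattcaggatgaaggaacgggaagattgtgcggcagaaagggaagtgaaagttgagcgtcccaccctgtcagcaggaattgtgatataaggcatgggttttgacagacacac
Trem2: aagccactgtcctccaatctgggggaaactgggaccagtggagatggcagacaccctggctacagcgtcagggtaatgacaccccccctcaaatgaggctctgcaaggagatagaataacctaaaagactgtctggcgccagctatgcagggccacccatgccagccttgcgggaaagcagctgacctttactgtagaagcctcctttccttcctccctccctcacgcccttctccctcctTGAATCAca
Gpnmb: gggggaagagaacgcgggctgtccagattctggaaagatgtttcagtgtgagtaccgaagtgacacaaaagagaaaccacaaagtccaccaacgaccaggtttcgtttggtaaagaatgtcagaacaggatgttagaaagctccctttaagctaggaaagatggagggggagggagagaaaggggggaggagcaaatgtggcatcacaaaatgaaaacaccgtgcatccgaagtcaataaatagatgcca
C1qb: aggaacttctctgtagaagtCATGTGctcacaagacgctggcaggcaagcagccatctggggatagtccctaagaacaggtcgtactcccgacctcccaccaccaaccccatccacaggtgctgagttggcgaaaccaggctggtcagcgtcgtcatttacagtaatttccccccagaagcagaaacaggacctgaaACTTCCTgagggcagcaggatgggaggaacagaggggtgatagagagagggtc
C1qc: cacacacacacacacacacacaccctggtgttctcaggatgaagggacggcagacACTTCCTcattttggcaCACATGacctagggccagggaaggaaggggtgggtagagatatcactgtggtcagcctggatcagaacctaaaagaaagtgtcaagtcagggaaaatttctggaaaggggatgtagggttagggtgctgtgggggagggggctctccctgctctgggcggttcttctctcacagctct

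A PU.1 match was found in 3 of the 8 promoters (*C1qb*, *C1qc* and *Lyz2*), against 7.69% of 32851 promoters of the same length. Positions are counted from the RefSeq start, which for *C1qb* lies upstream of the span given above. The match lay at bases -53 to -47 before the start of *C1qb*, at -195 to -189 before *C1qc* and at -100 to -94 before *Lyz2*. An M-box match was found in *C1qb*, *C1qc* and *Timd4*, against 12.25% of all promoters. The AP-1 motif matched once in *Trem2*, at -9 to -3, and at 2 places in *Cd68*, at -149 to -143 and at -24 to -18, against 6.75% of all promoters. No letters of any of these motifs were found in the windows of *Clec4f* and *Gpnmb*, and the E-box (6.02% of all promoters) and CARE (0.82%) were found in none of the 8. These matches are a description of the letters in a window and do not show binding.

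The libraries held 4.45 to 8.09 gigabases each (median 5.19), with 5.42 to 8.09 for Ctrl and 4.70 to 5.54 for LKO liver. Correlations between libraries of a group were at least 0.976 across genes on log2(FPKM + 1), where FPKM counts sequenced fragments after division by transcript length and by library size. *Crif1*, listed as *Gadd45gip1*, stood at 14.6, 12.5 and 13.6 FPKM in Ctrl liver and at 5.40, 2.002 and 2.51 in LKO liver (log2 fold change -1.84, SE 0.27, limma adjusted p = 0.00357). LKO replicate 1 thus kept the most *Crif1* transcript of the 3 LKO livers. One feature of the liver libraries touches every value below: the highest of the 6 libraries was LKO replicate 3 for 63.65% of all tested genes, and the tested genes of liver had a median log2 fold change of 0.33. Median-ratio scaling, which divides each library by a common factor, moved that median to -0.01, and scaled values are given beside the deposited ones.

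In liver, all 10 macrophage transcripts were higher in every LKO library than in any Ctrl library. *Gpnmb* went from almost nothing to between 8.22 and 43.9 FPKM, *Trem2* from below 0.4 to above 2.7 FPKM, *Cd68* and *Adgre1* changed more than 3-fold in mean FPKM, and the Kupffer markers *Clec4f* and *Timd4* stood at 2.26 and 2.11 times their Ctrl means. The adjusted criterion, a fold change of at least 1.5 with a Benjamini-Hochberg adjusted p under 0.05 in limma over all 10956 tested genes, was passed by 10 of 10, against 23.9% of all tested genes in the same direction. With no overlap and LKO higher, the background was 53% of tested genes. After median-ratio scaling 9 of 10 passed, against 9.78%. *Trem2* and *Gpnmb* reached 1 FPKM in no Ctrl liver and entered the test only through their LKO libraries, so that their presence among the genes that passed was partly fixed by the filter; the other 8 were above it in both groups.

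**Figure D1:**
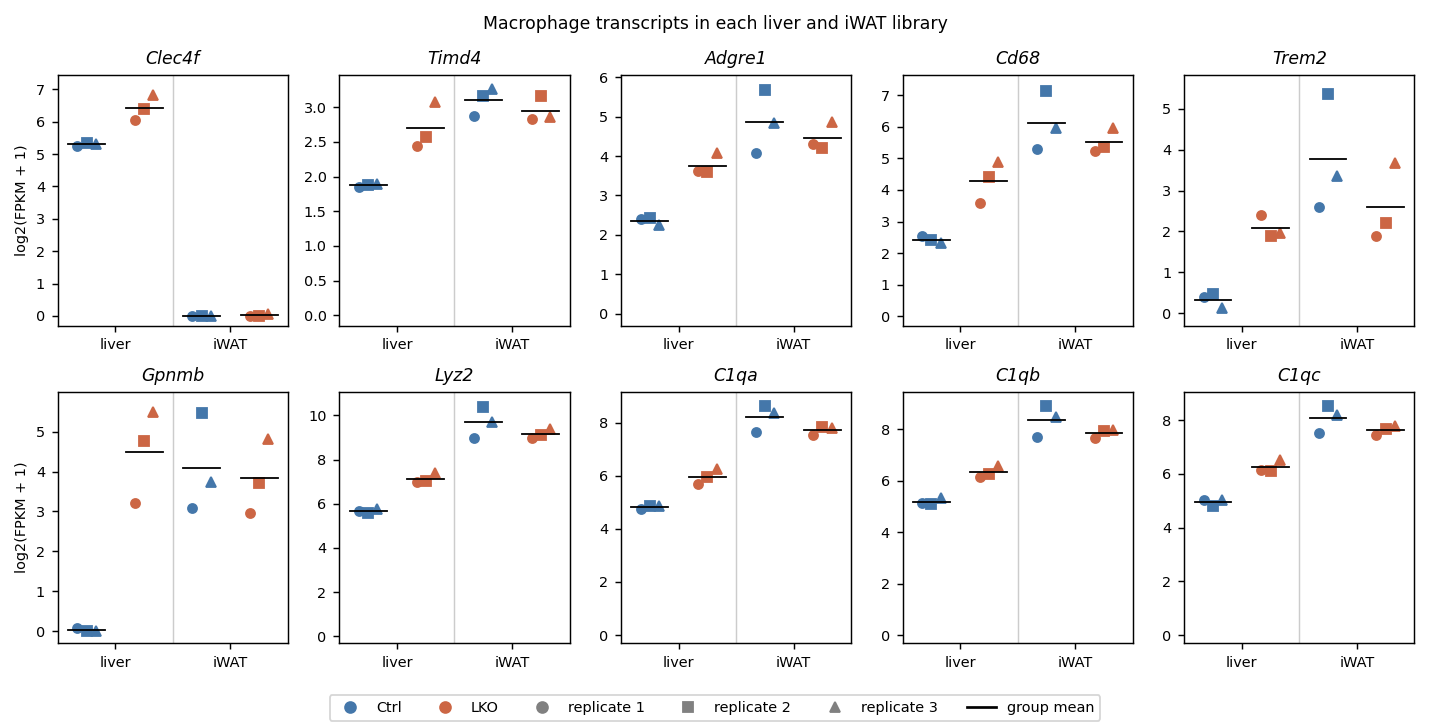
Each panel plots log2(FPKM + 1) of 1 transcript in the 6 liver and 6 iWAT libraries, Ctrl in blue and LKO in orange, with a marker shape for each replicate number and a line at the group mean. In liver the LKO points lie above the Ctrl points in all 10 panels, and in iWAT the groups overlap in all 10, with Ctrl replicate 2 the highest iWAT point in 8 panels.

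Among the resident markers, *Clec4f* was at 37.1, 39.6 and 39.0 FPKM in Ctrl liver and at 65.5, 82.8 and 113 FPKM in LKO liver. The Ctrl libraries were tightly grouped and every LKO library was above them, at 2.26 times the mean level. The log2 fold change of FPKM + 1 was 1.12 (SE 0.19, n = 3 per group, limma adjusted p = 0.00538), and 0.73 after scaling. *Timd4* stood at 2.61, 2.67 and 2.73 FPKM in Ctrl and 4.45, 4.94 and 7.47 FPKM in LKO liver. Its groups did not overlap either, with replicate 3 well above the other LKO livers. The log2 fold change was 0.83 (SE 0.17, limma adjusted p = 0.0116), the smallest of the 10. It was 0.51 after median-ratio scaling and 0.41 after quantile normalization, both under the 1.5-fold limit.

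Among the recruited and lipid-associated markers, *Trem2* was at 0.321, 0.376 and 0.0943 FPKM in Ctrl liver and at 4.33, 2.73 and 2.90 FPKM in LKO liver. The groups were far apart, and the highest library was LKO replicate 1. The ratio of means was 12.6, and the log2 fold change of FPKM + 1 was 1.76 (SE 0.17, limma adjusted p = 0.00102). *Gpnmb* was listed at 0.0519, 0 and 0 FPKM in Ctrl liver and at 8.22, 26.3 and 43.9 FPKM in LKO liver. It was the only one of the 10 that was listed at 0 in any liver library, and LKO replicate 1, the highest for *Trem2*, was the lowest LKO library for *Gpnmb*. Its log2 fold change of FPKM + 1 was 4.46 (SE 0.51, limma adjusted p = 0.00161). After scaling the log2 fold changes were 1.57 for *Trem2* and 4.26 for *Gpnmb*. Because the Ctrl values are at or near 0, the fitted fold of these genes depends on the pseudocount: with 0.1 in place of 1 it was 7.53 for *Gpnmb* and 3.31 for *Trem2*.

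Of the general markers, *Adgre1* was at 4.29, 4.38 and 3.76 FPKM in Ctrl liver and at 11.3, 10.99 and 15.9 FPKM in LKO liver. *Cd68* was at 4.77, 4.30 and 4.03 FPKM in Ctrl and at 11.1, 20.1 and 28.7 FPKM in LKO liver. Both rose, *Adgre1* by a log2 fold change of 1.40 (SE 0.16, limma adjusted p = 0.00156) and *Cd68* by 1.87 (SE 0.30, limma adjusted p = 0.00466). After scaling these were 1.05 and 1.52. The spread of *Cd68* among the LKO livers was wide, as for *Gpnmb*, with replicate 1 the lowest and replicate 3 the highest for both. *Lyz2* was at 49.6, 46.3 and 52.6 FPKM in Ctrl and at 125, 128 and 168 FPKM in LKO liver, a log2 fold change of 1.47 (SE 0.14, limma adjusted p = 9.8e-04), or 1.08 after scaling. Its paralog *Lyz1*, with which reads could be shared, was listed at no more than 0.707% of *Lyz2* in liver.

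The C1q chains moved as a set. *C1qa* was at 25.6, 28.3 and 28.1 FPKM in Ctrl liver and 51.0, 61.1 and 75.2 FPKM in LKO liver. *C1qb* was at 34.2, 32.8 and 38.9 FPKM in Ctrl and 68.9, 75.6 and 95.1 FPKM in LKO liver. The chains rose to 2.29 (*C1qa*), 2.26 (*C1qb*) and 2.53 (*C1qc*) times their Ctrl mean in FPKM, with log2 fold changes of 1.149 for *C1qa* (SE 0.15, limma adjusted p = 0.00240), 1.145 for *C1qb* (SE 0.14, limma adjusted p = 0.00214) and 1.303 for *C1qc* (SE 0.14, limma adjusted p = 0.00149). After scaling the log2 fold changes were smaller, at 0.759 for *C1qa*, 0.754 for *C1qb* and 0.91 for *C1qc*, and each still passed. *C1qc* was at 31.8, 27.2 and 31.5 FPKM in Ctrl and 69.0, 68.7 and 91.4 FPKM in LKO liver. Within a library the chains stayed close to each other: over the 24 libraries of all tissues the ratio of *C1qb* to *C1qa* ran from 0.899 to 1.39 and that of *C1qc* to *C1qa* from 0.901 to 1.35.

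Replicate 3 was the highest liver library for 9 of the 10 transcripts, *Trem2* being the exception, beside 63.65% of all tested genes. Its part in the result was not tested; without it all 10 still passed the adjusted criterion, with a median log2 fold change of 1.20 over the 10 (1.35 with all libraries).

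**Figure D2:**
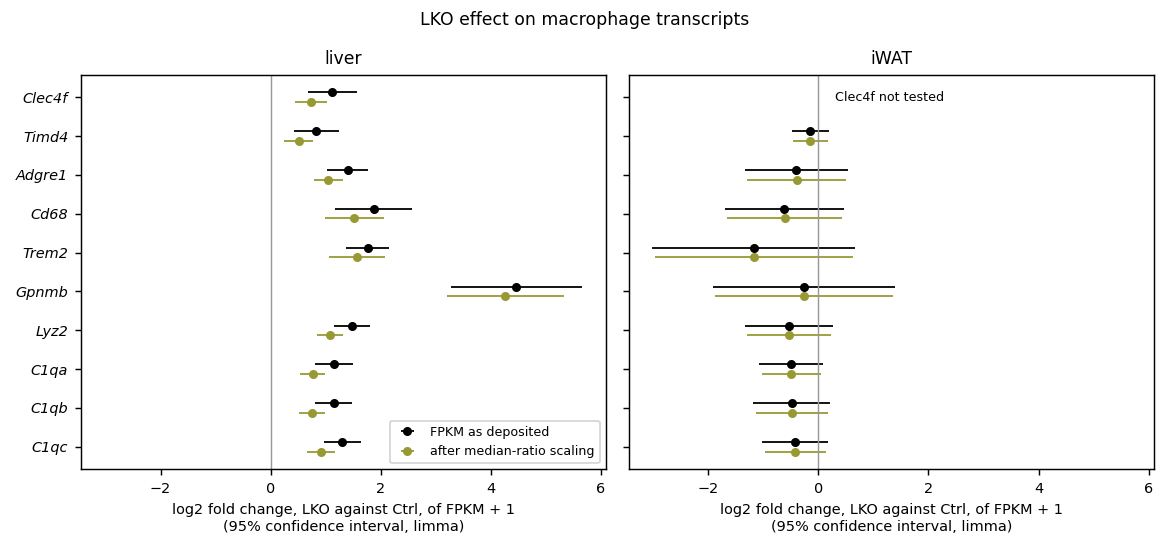
Points give the log2 fold change of FPKM + 1 (LKO against Ctrl) with its limma 95% confidence interval in liver (left) and iWAT (right), from deposited FPKM in black and after median-ratio scaling in olive. In liver all 10 intervals lie above 0 under both scalings, with *Gpnmb* farthest out at 4.46, and in iWAT all 9 intervals include 0.

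To ask whether recruited and resident markers changed alike, the mean log2(FPKM + 1) of *Trem2* and *Gpnmb* minus that of *Clec4f* and *Timd4* was taken within each library. In liver it was -3.31, -3.38 and -3.55 in Ctrl and -1.44, -1.14 and -1.23 in LKO. The recruited and lipid-associated pair thus stayed below the resident pair in every liver, but the gap was smaller by 2.14 on the log2 scale in LKO, without overlap. That size depends on the pseudocount and the unit, at 4.35 with a pseudocount of 0.1 and 2.73 with TPM. Both sides were higher in LKO, the recruited side by more: the recruited mean was 0.07 to 0.24 in Ctrl and 2.81 to 3.73 in LKO, and the resident mean was 3.55 to 3.61 in Ctrl and 4.25 to 4.96 in LKO.

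Each transcript was also set against *C1qa* of its own library, a ratio chosen after the values were seen. *Clec4f* was 1.39 to 1.45 times *C1qa* in Ctrl liver and 1.28 to 1.498 times in LKO liver. *Timd4* was 0.0945 to 0.102 times *C1qa* in Ctrl and 0.0809 to 0.0994 times in LKO liver. For both resident markers the groups overlapped, as they did for *C1qb* and *C1qc*. Their mean ratios in LKO were 0.976 (*Clec4f*) and 0.911 (*Timd4*) times those in Ctrl. The ratio of each remaining transcript was higher in every LKO liver than in any Ctrl liver. How many of all tested genes were likewise separated relative to *C1qa* was not counted, so this has no background beside it. *Adgre1* was at 0.134 to 0.168 in Ctrl and 0.180 to 0.221 in LKO, and *Lyz2* at 1.64 to 1.94 in Ctrl and 2.10 to 2.44 in LKO. *Cd68* was at 0.144 to 0.187 in Ctrl and 0.217 to 0.382 in LKO. *Trem2* was at 0.00336 to 0.0133 in Ctrl and 0.0386 to 0.0848 in LKO, and *Gpnmb* at no more than 0.00203 in Ctrl and 0.161 to 0.584 in LKO. Relative to *C1qa*, the lipid-associated pair, the lysosomal marker *Cd68*, *Adgre1* and *Lyz2* were thus higher in LKO liver. Whether this is particular to them was not tested. No such separation was seen in iWAT, where all of these ratios overlapped between the groups.

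**Figure D3:**
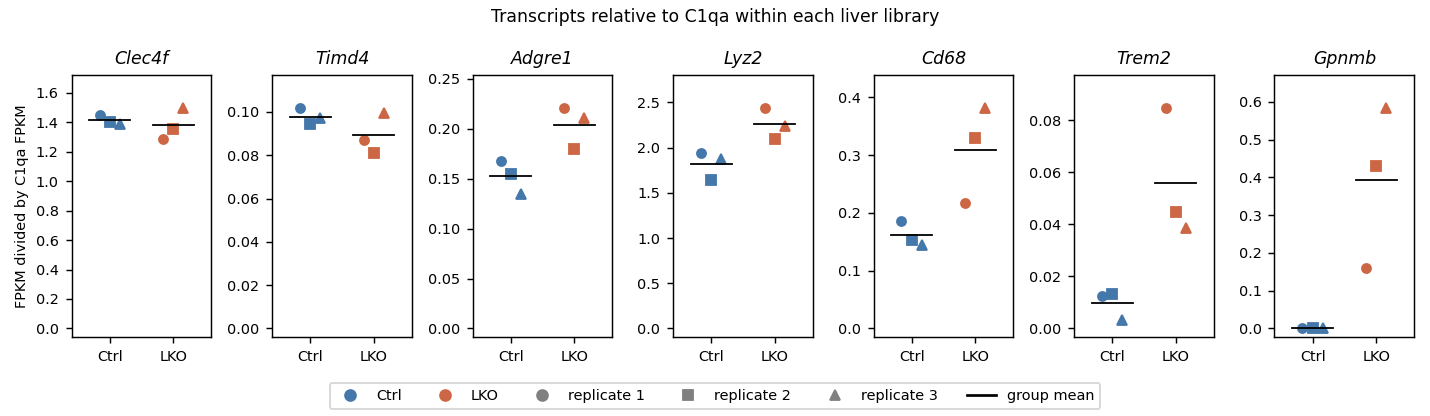
Each panel plots the FPKM of 1 transcript divided by the *C1qa* FPKM of the same liver library, Ctrl in blue and LKO in orange, with a line at the group mean and a separate linear axis per panel. *Clec4f* and *Timd4* overlap between the groups, whereas *Adgre1*, *Lyz2*, *Cd68*, *Trem2* and *Gpnmb* are higher in each LKO library, *Gpnmb* from at most 0.00203 to at least 0.161.

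In iWAT no macrophage transcript passed the adjusted criterion. *Clec4f* was listed at 0 in 5 of the 6 libraries and at 0.0343 FPKM in the other and was not tested. Of the 9 tested, 0 passed in limma, where 0% of the 12288 tested genes did. An unadjusted p under 0.05 was reached by 0 of the 9, beside 15% of tested genes, and 0 of the 9 had groups without overlap, beside 9.76% of tested genes with LKO higher and 11% with LKO lower. All 9 log2 fold changes were negative, between -0.15 (*Timd4*) and -1.18 (*Trem2*), with a median of -0.49 beside -0.01 for all tested genes. The intervals were wide: that of *Trem2* ran from -3.01 to 0.66 and that of *Gpnmb* from -1.92 to 1.39, so that sizeable changes in either direction were within the error.

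The spread among the iWAT libraries was wide. *Trem2* stood at 5.02, 39.7 and 9.22 FPKM in Ctrl iWAT and at 2.69, 3.63 and 11.7 FPKM in LKO iWAT. *Gpnmb* stood at 7.54, 43.1 and 12.4 FPKM in Ctrl and at 6.82, 12.1 and 27.3 FPKM in LKO. *Cd68* stood at 38.7, 139 and 62.1 FPKM in Ctrl and at 36.6, 39.9 and 61.4 FPKM in LKO. Ctrl replicate 2 was the highest of the 6 libraries for 8 of the 9 transcripts (all but *Timd4*), beside 25.53% of all tested genes. Without it the median over the 9 was -0.19 and *Gpnmb* turned to 0.42 (0.17 without LKO replicate 1), and without Ctrl replicate 1 the median was -0.79 and 6 of the 9 had an unadjusted p under 0.05 (19.2% of all tested genes there), with none past the adjusted criterion.

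*Timd4* was the steadiest in iWAT, at 6.31, 7.96 and 8.64 FPKM in Ctrl and 6.10, 7.96 and 6.25 FPKM in LKO. *Lyz2*, the most abundant of the 10 there, was at 507, 1339 and 838 FPKM in Ctrl and at 507, 553 and 664 FPKM in LKO. *C1qa* was at 200.4, 389 and 326 FPKM in Ctrl and at 182, 225 and 219.7 FPKM in LKO. For all of them the groups overlapped. The recruited pair lay above the resident pair in every iWAT library, by 1.41, 3.82 and 1.91 in Ctrl and 1.01, 1.38 and 2.79 in LKO on the log2 scale, with overlap; since *Clec4f* was all but absent, the resident side rests on *Timd4* there.

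The LKO effect differed between liver and iWAT. In a limma fit of the 12 libraries, the interaction (LKO effect in liver minus that in iWAT) had an adjusted p under 0.05 for 10 of 10 transcripts and was positive for each, beside 26.9% of 13178 tested genes with a significantly more positive effect in liver. The difference was 4.73 for *Gpnmb* (limma adjusted p = 0.00541), 2.94 for *Trem2* (limma adjusted p = 0.0252) and 2.496 for *Cd68* (limma adjusted p = 0.0112). It was 1.10 for *Clec4f* (limma adjusted p = 0.00513), which amounts to the liver change since the gene was near 0 in iWAT, and 0.98 for *Timd4* (limma adjusted p = 0.0125). After quantile normalization 7 of 10 passed (9.75% of all tested genes with a significantly more positive effect in liver), and *Trem2* (limma adjusted p = 0.0564), *Adgre1* (limma adjusted p = 0.0583) and *Timd4* (limma adjusted p = 0.0543) did not. *Trem2* also missed it when liver Ctrl replicate 3 (limma adjusted p = 0.0567), iWAT LKO replicate 1 (limma adjusted p = 0.0547) or iWAT LKO replicate 2 (limma adjusted p = 0.0577) was left out.

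In GM, *Cd68*, *Lyz2*, *C1qa*, *C1qb* and *C1qc* were abundant enough to test, and 0 of 5 passed the adjusted criterion in limma, where 0% of the 10877 tested genes did. An unadjusted p under 0.05 was reached by 0 of 5, beside 6.83% of tested genes. Log2 fold changes were 0.39 for *Cd68*, 0.22 for *Lyz2* and 0.23 to 0.34 for the C1q chains. LKO replicate 1 was the highest library for all 5, beside 37.52% of all tested genes. Marker sums of several other cells were highest in that library too. It held 35.2 FPKM of B cell markers against at most 8.20 in Ctrl, 15.3 of T cell markers against at most 4.83, 44.7 of monocyte markers against at most 26.1 and 3.45 of neutrophil markers against at most 0.970. MHC class II genes summed to 233.7 FPKM there against at most 106.3 in Ctrl, and adipocyte markers to 685 against at most 526. The part of these cells in the values was not tested. Without LKO replicate 1 the *Lyz2* value was -0.19.

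In hypothalamus, where microglia carry *Trem2* and C1q, 0 of 7 tested transcripts passed the adjusted criterion in limma, where 0.0217% of 13828 tested genes did, all lower. *Trem2* was at 9.50, 8.70 and 8.48 FPKM in Ctrl and at 7.40, 6.00 and 7.28 FPKM in LKO hypothalamus. The LKO libraries were all lower, by a log2 fold change of -0.33 (SE 0.09), with an unadjusted limma p of 0.00806 and an adjusted p of 0.999. *C1qb* was the other transcript without overlap, at -0.20, with an unadjusted limma p of 0.0376 and an adjusted p of 0.999. These 2 of 7 stood beside 4.97% of all tested genes that were lower without overlap and 3.72% that had an unadjusted p under 0.05. *Adgre1*, *Cd68*, *Lyz2*, *C1qa* and *C1qc* lay between -0.39 and 0.03 with overlapping groups, and the sign of *Cd68* turned, to -0.051 at the lowest, when Ctrl replicate 2, Ctrl replicate 3 or LKO replicate 1 was left out.

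The 4 tissues differed widely in their levels in Ctrl mice, and the values here are FPKM, which are per length of transcript. *Clec4f* was found in liver at 37.1 to 39.6 FPKM, at no more than 0.305 in GM, and was listed at 0 in iWAT and hypothalamus. *Timd4* followed the order iWAT (6.31 to 8.64), liver (2.61 to 2.73), GM (0.190 to 0.727) and hypothalamus (at most 0.135), with no overlap between neighbours. Of the other 8, each was highest in iWAT, and only *Trem2* overlapped there with the next tissue, hypothalamus (8.48 to 9.50 against 5.02 to 39.7 FPKM). Liver and hypothalamus did not differ beyond their ranges for *Cd68*, *C1qb* and *C1qc*. *Gpnmb* was lowest in liver, below GM (0.427 to 0.637) and hypothalamus (0.372 to 0.539), and *Trem2* was as low in liver as in GM. So Ctrl liver held the 2 Kupffer markers and C1q but hardly any of the lipid-associated pair, while Ctrl iWAT held *Timd4*, C1q and the lipid-associated pair but not *Clec4f*. In LKO liver *Gpnmb* (8.22 to 43.9 FPKM) overlapped the range of Ctrl iWAT (7.54 to 43.1), and *Trem2* (2.73 to 4.33) was below it.

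**Figure D4:**
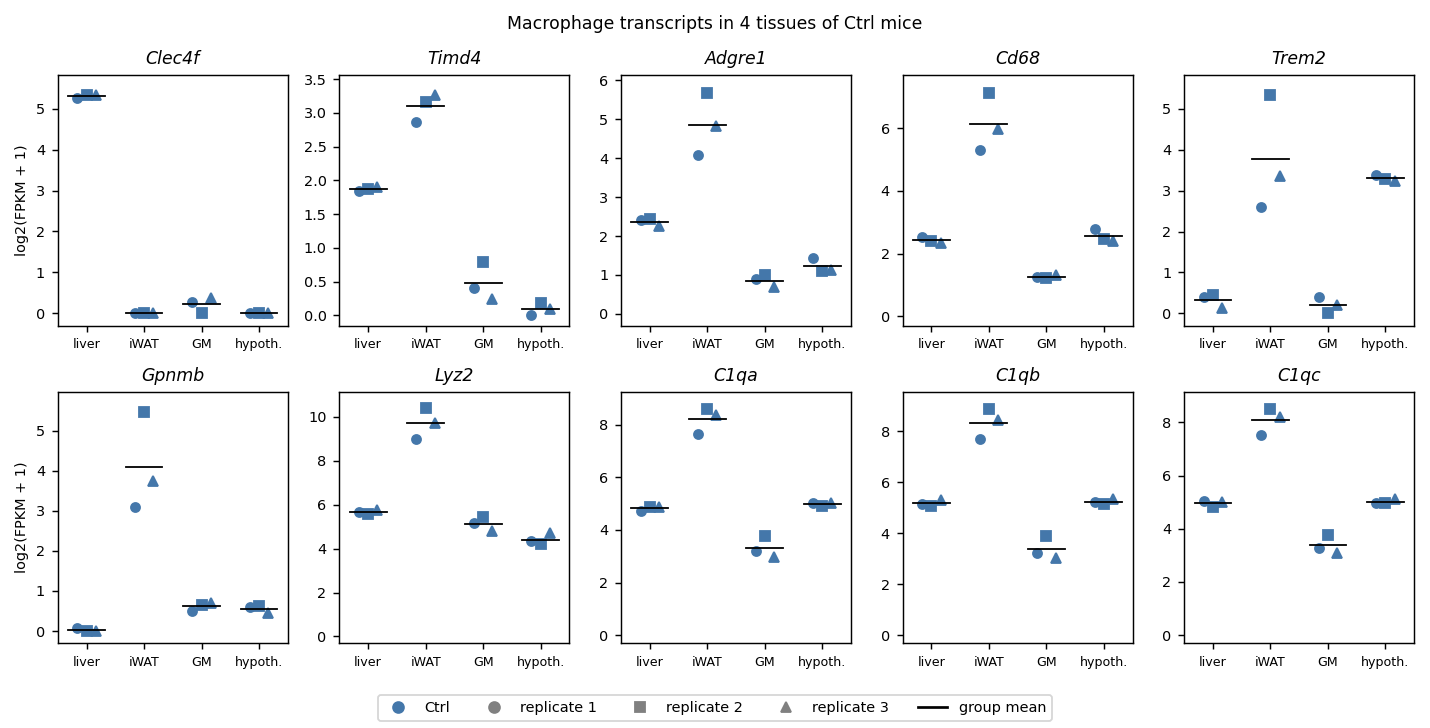
Each panel plots log2(FPKM + 1) of 1 transcript in the 3 Ctrl libraries of liver, iWAT, GM and hypothalamus, with a marker shape per replicate number and a line at the mean of the tissue. *Clec4f* stands out in liver, the other 9 are highest on average in iWAT, and *Trem2* and *Gpnmb* lie near 0 in liver.

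Over the 24 libraries, the 5 genes most like a marker were found by Pearson's r of log2(FPKM + 1) among 14121 genes, a description in which tissue differences weigh most. For *C1qa* they were *C1qc* (r = 0.997), *C1qb* (0.996), the complement factor *Cfp* (0.996), the Fc receptor chain *Fcer1g* (0.993) and *Spidr* (0.986). For *Clec4f* they were the liver genes *Slc17a4* (0.999), *Cyp4a10*, *Ugt1a9*, *Cblc* and *Hsd17b13*. For *Trem2* they were *Lgmn*, a lysosomal protease (0.962), *Fam105a*, *Soat1*, *Hpgds* and *Glipr1*. For *Gpnmb* they were *Tes* (0.959), the heme-degrading enzyme *Hmox1* (0.956), *Clec7a*, *Rpl5* and *Pard3b*.

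Other genes of the macrophage and of its surroundings were read from 19 lists, described by counts beside the background of 23.9% higher in liver. A gene tested through LKO libraries alone was partly fixed to be higher by the filter. Of 10 Kupffer identity genes 9 were tested (1 through LKO libraries alone) and 7 rose, 6 after scaling. *Marco*, a scavenger receptor, rose from 1.98 ± 0.08 to 23.8 ± 12.2 FPKM (SD, n = 3), a log2 fold change of 2.92. *Cd5l*, a secreted macrophage protein, rose by 1.41 and the iron exporter *Slc40a1* by 1.41. *Cd163*, the hemoglobin scavenger receptor, did not pass, at 2.32, 2.47 and 3.09 FPKM in Ctrl and 1.93, 5.44 and 7.91 FPKM in LKO liver (log2 fold change 0.61, limma adjusted p = 0.202), nor did *Nr1h3* (0.10). *Cd163* and *Nr1h3* were singled out after their values were seen.

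Of 17 pan-macrophage genes 15 were tested in liver (1 through LKO libraries alone) and 14 rose, 12 after scaling. *Cd14*, the lipopolysaccharide co-receptor, rose by a log2 fold change of 1.73, *Laptm5* by 1.64 and *Tyrobp* by 1.33. Of 16 lipid-associated genes 15 were tested (2 through LKO libraries alone) and 13 rose, 11 after scaling, with a median of 1.67. The tetraspanin *Cd63* rose by 4.33, the fatty acid receptor *Cd36* by 3.19 and the galectin *Lgals3* by 2.49. Several genes of that list are not particular to macrophages, and *Apoe*, an abundant hepatocyte product, was at -0.12.

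Of 6 TREM2 signalling genes 4 were tested. The adaptor *Tyrobp* rose by 1.33 and *Ms4a6d* by 1.16. The kinase *Syk* (0.95) and the phosphatase *Inpp5d* (0.86) passed as well, but both were tested through LKO libraries alone. Of 6 growth factor and receptor genes 5 were tested (1 through LKO libraries alone) and 5 rose, 3 after scaling, with *Csf2ra* at 1.32, the receptor *Csf1r* at 1.149 and its ligand *Il34* at 1.08. Of 16 lysosome genes 13 rose, but 3 after scaling, with *Sqstm1*, a cargo receptor of autophagy, at 1.70, *Hexa* at 1.65 and the cholesterol transporter *Npc1* at 1.18. In the MITF family, *Tfec*, tested through LKO libraries alone, passed (0.61, none after scaling), and *Mitf* (0.12), *Tfeb* (0.03) and *Tfe3* (0.57) did not. Of 5 tested MHC class II genes 5 rose, 3 after scaling.

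Of 8 other genes of the classical complement pathway, among them the C1r and C1s proteases that bind C1q, 0 rose and 1 fell, beside 3.5% of all tested genes, with a median of -0.31. That gene, *C1rb*, was listed at 31.8, 33.7 and 31.0 FPKM in Ctrl liver and at 23.1, 0 and 0 FPKM in LKO liver, and shares near-identical sequence with *C1ra*, so its value is uncertain. *C1ra* (-0.36) and *C1s1* (-0.37) stayed under the fold limit. After scaling 4 of the 8 fell, beside 7.53% of all tested genes.

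**Figure D5:**
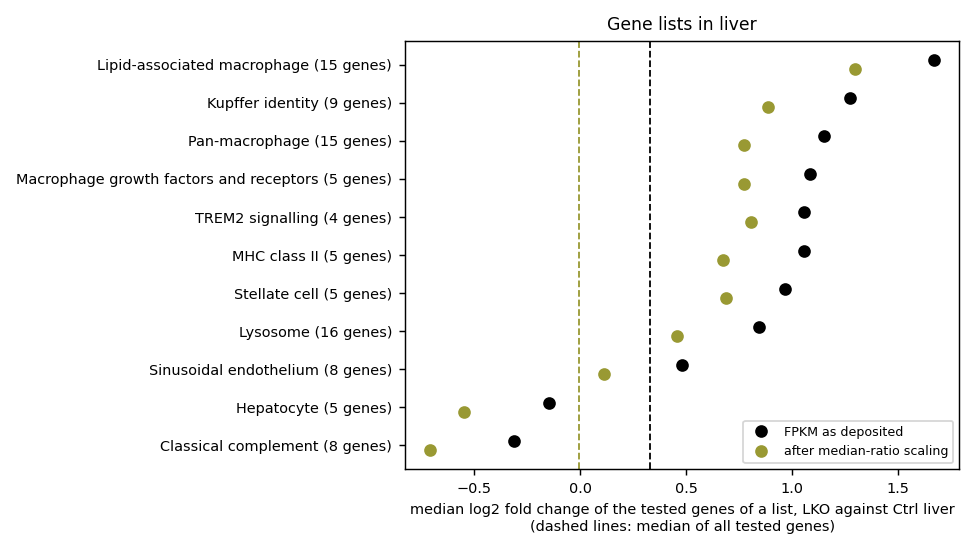
Points give the median log2 fold change (LKO against Ctrl liver) of the tested genes of 11 lists, from deposited FPKM in black and after median-ratio scaling in olive, and dashed lines mark the median of all tested genes (0.33 and -0.01). The macrophage lists lie to the right of both lines, up to 1.67 for lipid-associated genes, and hepatocyte and classical complement genes to the left.

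Markers of some other cells were also higher in LKO liver, and those of others were not. The summed level of 9 monocyte markers was 8.83 to 10.4 FPKM in Ctrl and 23.2 to 37.1 FPKM in LKO liver, and 3 of 3 tested rose (also after scaling), 1 of them tested through LKO libraries alone (*S100a4* by 1.496, *Plac8* by 1.21, *Itgal* by 0.90), while *Ly6c2* and *Ccr2* were too low to test. The sum of 10 neutrophil markers was 1.599 to 2.35 FPKM in Ctrl and 9.70 to 11.9 FPKM in LKO liver, with *S100a8* at 1.75, *S100a9* at 1.62 and *Csf3r* at 0.71, 3 of 3 tested (2 through LKO libraries alone, and 2 of 3 rose after scaling), and *Ly6g* and *Ltf* below 0.1 FPKM in every library. Stellate cell markers rose in 5 of 5 (2 after scaling), with *Dcn* at 1.304. The sum of 5 adipocyte markers was 12.9 to 14.4 FPKM in Ctrl and 33.4 to 35.6 FPKM in LKO liver, and the lipid droplet protein *Cidec* (2.58) and the fatty acid carrier *Fabp4* (0.84) were the 2 tested and both rose, 1 of them after scaling, with *Plin1* and *Lep* below 0.1 FPKM in every library. Sinusoidal endothelial markers rose in 2 of 8 (*Lyve1* at 1.21 and *Pecam1* at 0.81) and in 1 of 8 after scaling, a share near the background of 23.9%, or 9.78% after scaling. Hepatocyte markers passed in 0 of 5, at -0.15 in the median, with sums that overlapped. None of 6 T cell markers was abundant enough to test, and their sums overlapped as well. The 1 tested B cell marker of 6 did not pass, although the B cell sum was 1.19 to 2.42 FPKM in Ctrl and 2.47 to 3.63 FPKM in LKO liver, without overlap. Dendritic cell markers passed in 0 of 2, with a sum of 1.99 to 2.31 FPKM in Ctrl and 3.43 to 4.69 FPKM in LKO liver, also without overlap. Of 5 microglia genes only *Sall1* was tested (0.84, not past the criterion after scaling). The part of these cells in the values of *Cd68*, *Lyz2* and the other shared genes was not tested.

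In iWAT none of the lists held a gene that passed the adjusted criterion. The sum of neutrophil markers was 19.9 to 27.3 FPKM in Ctrl and 35.2 to 41.6 FPKM in LKO iWAT, without overlap, with *S100a9* at 1.69 (limma adjusted p = 0.127). Hepatocyte transcripts, led by *Alb* (1.39, limma adjusted p = 0.103), were listed at 13.3 to 24.1 FPKM in Ctrl and 35.8 to 53.0 FPKM in LKO iWAT. The pan-macrophage sum overlapped, at 503 to 1327 FPKM in Ctrl and 523 to 717 FPKM in LKO iWAT.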

How the data were processed

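RNA-seq libraries of liver, iWAT, GM and hypothalamus from Ctrl and LKO mice were used, 3 per genotype and tissue, and groups were taken from the sample labels. The authors deposited FPKM per gene in 1 joined table of 24532 genes, and for each library a table of mean transcript coverage (signal), FPKM and TPM, deposited without further scaling between libraries as far as stated. The submitters' processing notes name FastQC 0.11.5, Trimmomatic 0.32, HISAT2 2.0.5, Bowtie2 2.2.6, STAR 2.5.2b, StringTie 1.3.3b and the mm10 build, without roles. Read counts were not used here, so count models were not applied, and depth in gigabases was inferred from the ratio of coverage to FPKM. Counting error of single genes is therefore unknown.

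Per tissue, LKO was compared with Ctrl in limma 3.58.1 under R 4.3.3 (lmFit, eBayes with trend, two-sided) on log2(FPKM + 1), for genes of at least 1 FPKM in at least 3 of 6 libraries, with Benjamini-Hochberg adjustment over all genes tested. The adjusted criterion was met by genes with both a change of 1.5-fold or more and an adjusted p under 0.05. Fold changes on this scale understate changes of low genes. The interaction used the 12 liver and iWAT libraries, taken as independent. The exact two-sided permutation test of single values cannot go below p = 0.1 with 3 against 3, and gave 0.1 for each of the 10 transcripts in liver and 0.2 to 1 in iWAT. P-values measure the spread between these libraries. Python 3.11.15 with numpy 2.4.6, pandas 2.3.3 and matplotlib 3.10.9 was used for tables and plots, and the fits were tested on simulated data. The members, the 19 lists and the motifs were chosen with earlier results of these data known. Named genes were the 10 members in every tissue, up to 3 genes per list with the largest absolute change in liver and iWAT, the 5 genes most like *Clec4f*, *C1qa*, *Trem2* and *Gpnmb*, and *Crif1* (*Gadd45gip1*); other tested genes were named after their values were seen, and untested or partner genes (*Lyz1*, *Ly6c2*, *Ccr2*, *Ly6g*, *Ltf*) for their identity. Single results for some genes are not reported here. The alternatives were another pseudocount (0.1), other filters, TPM, median-ratio and quantile scaling, ordinary variances, a replicate block, 1 fit of all libraries, a limit of 2-fold, and the omission of each library in turn.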

Additional observations from a re-analysis of the deposited data

Results flagged for a closer look

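These transcripts are listed because the LKO effect in liver differed from that in iWAT in the limma interaction (adjusted p under 0.05 for each, 26.9% of 13178 genes in this direction). The difference of log2 fold changes, liver minus iWAT, was 1.10 for *Clec4f* (which was below the filter in iWAT, so that the value amounts to its liver change), 0.98 for *Timd4*, 1.80 for *Adgre1*, 2.496 for *Cd68*, 2.94 for *Trem2*, 4.73 for *Gpnmb*, 2.01 for *Lyz2*, 1.65 for *C1qa*, 1.63 for *C1qb* and 1.73 for *C1qc*. Groups of 3 libraries are too small for a search for single outlying libraries. The iWAT side of these values moves with Ctrl replicate 2, and without it the interaction still passed for 10 of 10.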

How the results depend on the processing

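In liver the 10 members that passed numbered 9 with median-ratio scaling, quantile normalization, ordinary variances or a fold of at least 2, 8 of 8 tested at a mean of at least 5 FPKM, and 10 under every other alternative (10 to 10 when each library was left out). *Timd4* was the one lost, at 0.51 (median-ratio), 0.41 (quantile) and an adjusted p of 0.0555 with ordinary variances. In iWAT, GM and hypothalamus 0 members passed under every alternative (0 to 0 when each library was left out). The interaction passed for 7 members with quantile normalization (*Timd4* 0.54, *Adgre1* 1.35, *Trem2* 2.70 lost), for 9 with ordinary variances (*Trem2*, limma adjusted p = 0.0642), for 9 to 10 when each library was left out (*Trem2* lost without liver Ctrl 3, iWAT LKO 1 or iWAT LKO 2) and for 10 otherwise. The LKO minus Ctrl change of the difference between recruited and resident markers was 2.14 in liver. It was 4.35 with a pseudocount of 0.1, 2.73 with TPM and 2.07 to 2.23 when each library was left out. The same change in iWAT, -0.65, ran from -1.19 to 0.07. Signs turned when a library was left out for *Gpnmb* in iWAT (-0.27, range -0.77 to 0.42, positive without Ctrl 2 and, at 0.17, without LKO 1), for *Lyz2* in GM (0.22, range -0.19 to 0.47, negative without LKO 1) and for *Cd68* in hypothalamus (0.03, range -0.051 to 0.14, negative without Ctrl 2, Ctrl 3 or LKO 1). The cause was not tested. Of all liver genes 2622 were higher and 384 lower, against 1071 and 825 after median-ratio scaling and 899 and 746 after quantile normalization. The 3006 in all became 1499 with ordinary variances, 1776 at a mean of at least 5 FPKM and 1804 to 4325 when each library was left out. In iWAT 0 genes became 14, 15 and 317 with median-ratio scaling, quantile normalization and 1 fit of all 24 libraries, and 0 to 110 when each library was left out. GM went from 0 to 22 and hypothalamus from 3 to 9 in the fit of all libraries, with 0 to 9 in both when each library was left out, and hypothalamus had 0 without the filter, with ordinary variances or with the block and 1 with TPM. With the replicate number as a block the pairing gave 10 members in liver, 0 in the other 3 tissues and 10 in the interaction. It changed no member's call. After subtraction of group means, same-numbered Ctrl and LKO libraries correlated at 0.03 to 0.15 in liver and -0.12 to 0.30 in iWAT. In GM the range was 0.05 to 0.35 and in hypothalamus -0.14 to 0.14. At least 1 such pair of each tissue was at or under 0.1. Pairs with different numbers ran from -0.26 to 0.27 in liver and -0.42 to 0.30 in iWAT. They ran from -0.33 to 0.24 in GM and -0.25 to 0.16 in hypothalamus. So few pairs cannot tell whether same-numbered libraries share more than a number, and this was not tested. The 3 libraries per group and low Ctrl levels of *Trem2* and *Gpnmb* limit what can be told, and no counts were used for counting error.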
